A study of Mus musculus with 12 samples.

Results

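The enzymes that write, copy, oxidise and excise DNA methylation were followed as transcripts in mouse blood stem and progenitor cells. The set comprised 10 genes of the 24538 in the deposited count tables: Tet1, Tet2, Tet3, Dnmt1, Dnmt3a, Dnmt3b, Uhrf1, Tdg, Idh1 and Idh2, taken by symbol and present in both tables. A total of 9 of the 10 passed the filter on low counts in every fit, and Tdg did not. RNA was sequenced from 2 sorted marrow populations, LSK and MPP, of Tet2 KO, Tet2 Mut and wild-type (WT) mice, all 10 weeks old and of the strain 129/C57/B6 mixed. LSK denotes lineage-negative cells positive for Sca-1 and Kit, the fraction that holds the blood stem cells, and MPP stands for multipotent progenitors, although the titles of the MPP libraries read Lin. Marrow of 2 mice was pooled per genotype, and each of the 6 groups had 2 technical replicate libraries, so that SDs and p-values measure the spread between libraries of 1 pool and not between animals. The labels give neither the KO allele, nor the residues altered in Mut, nor the gates for MPP. By its title, the series asks what Tet2 does apart from its catalytic activity.

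The Tet proteins are dioxygenases that oxidise 5-methylcytosine, using 2-oxoglutarate, iron and oxygen, and Tet2 is a common target of mutation in blood cancers. Dnmt3a and Dnmt3b place new methyl groups on DNA, Dnmt1 copies them after replication, and Uhrf1 brings Dnmt1 to half-methylated sites. Tdg, a DNA glycosylase, excises the more oxidised bases. Idh1, in the cytosol, and Idh2, in mitochondria, make 2-oxoglutarate.

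The start regions of Tet2, the gene altered in the KO and Mut mice, and of Dnmt3b, a member higher in LSK than in MPP in every genotype, are shown first with each CpG in capitals. CpG is the dinucleotide that these enzymes methylate and oxidise. Sequences are from RefSeq on GRCm38.p6, written 5′ to 3′ on the gene's strand, and hold the 250 bases before the annotated start. All 10 members had at least 1 such window, 16 in all.
Tet2, chr3:133544391-133544640, minus strand: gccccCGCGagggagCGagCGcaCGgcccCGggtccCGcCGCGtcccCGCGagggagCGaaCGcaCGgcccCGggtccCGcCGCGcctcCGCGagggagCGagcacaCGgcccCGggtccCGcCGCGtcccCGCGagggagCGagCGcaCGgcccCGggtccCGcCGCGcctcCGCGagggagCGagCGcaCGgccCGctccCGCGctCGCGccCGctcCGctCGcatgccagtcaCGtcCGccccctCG
Dnmt3b, chr2:153649199-153649448, plus strand: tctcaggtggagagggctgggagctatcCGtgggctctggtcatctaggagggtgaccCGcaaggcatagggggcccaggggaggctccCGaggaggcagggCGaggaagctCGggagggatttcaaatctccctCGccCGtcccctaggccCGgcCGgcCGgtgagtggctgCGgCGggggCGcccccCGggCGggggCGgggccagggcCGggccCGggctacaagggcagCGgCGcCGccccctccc
Neither window overlapped an annotated exon, though that of Tet2 lies inside the outer bounds of the gene given below. The Tet2 window held 51 CpG at 83.6% G and C, and 0.07% of the 32851 mouse windows of this kind held as many. The Dnmt3b window held 21 CpG at 75.2% G and C, against a median of 6 over all windows. Methylation itself was not measured in these libraries.

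The second pair of sequences belongs to Dnmt1 and Uhrf1, which copy methylation behind the replication fork and whose levels are set beside those of proliferation genes below. E2F factors drive many genes of the DNA synthesis phase, and 4 E2F-type words, TTTGGCGC, TTTCGCGC, TTTCCCGC and TTTGCCGC, were searched on both strands of each window. Of all windows 1.86% held one, and of the 16 member windows 2 did, 1 of the 3 windows of Dnmt1 and 1 of the 2 of Uhrf1. Each word holds a CpG, and these windows of Dnmt1 and Uhrf1 held 26 and 30 CpG, against a median of 6 over all windows. The 1.86% is therefore not a background of like CpG content, and no excess can be read from it. The word stands in capitals in the 30 bases around it, and in Dnmt1 it reads on the strand opposite to the gene.
Dnmt1, chr9:20952824-20952853, minus strand: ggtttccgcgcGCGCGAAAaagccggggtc
Uhrf1, chr17:56304117-56304146, plus strand: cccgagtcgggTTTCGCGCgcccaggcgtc
Both starts lie inside the outer bounds of their gene given below, and 166 of the 250 bases of the Dnmt1 window are annotated as exon, against 0 of the Uhrf1 window. A match of letters is a description and not a bound site.

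Library depth ranged between 9181027 and 23532847 gene counts. The floor of detection, 3 counts in a library, stood between 0.127 and 0.327 counts-per-million (CPM) and covers counting error only. The 2 LSK WT libraries stood apart, with 12470 and 12614 genes detected against 13333 to 14264 in the other 10 libraries. Their log2 CPM correlated across genes at 0.869, against 0.947 to 0.960 within the other groups, and the ribosomal precursor row Rn45s took 3.65% and 3.70% of their counts, against 0.873% to 2.51% elsewhere. Every comparison with LSK WT rests on these 2 libraries, and with no other LSK WT library none can be made without both. The markers of the MPP libraries also went against a plain reading of their label. Kit averaged 534 to 594 CPM over the LSK groups and 180 to 262 CPM over the MPP groups, and Ly6a, which encodes Sca-1, averaged 75.8 to 156 CPM over the LSK groups and 10.4 to 20.3 CPM over the MPP groups. S100a8, a neutrophil gene, averaged 12.0 to 62.8 CPM in LSK groups and 742 to 1477 CPM in MPP groups, and Klf1, an erythroid factor, 13.5 to 23.8 and 186 to 305 CPM in the same order. The MPP libraries are therefore named here by their label only. Spike-in RNA took 0.0822% to 0.229% of counts in LSK libraries and 3.16% to 5.15% in MPP libraries. Population, deposited table and any handling that went with them cannot be told apart, and in bulk RNA fewer cells of a type and less RNA per cell cannot be told apart either.

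Tet2 was examined first, since the mice are defined by it. The gene lies on chromosome 3, 133463679 to 133545139 of GRCm38, minus strand. In LSK cells Tet2 stood at 29.2 and 31.7 CPM in KO, 43.4 and 44.4 in Mut, and 87.3 and 62.7 in WT. The 3 genotypes did not overlap, with KO lowest and WT highest. The KO minus WT log2 difference was -1.32 (SE 0.308), and its adjusted p of 0.207 in edgeR's quasi-likelihood test missed the threshold of 0.05, though its unadjusted p was 0.0033. It passed in DESeq2 (adjusted p = 0.00247) and in an edgeR fit of all 12 libraries (0.046). There 688 and 272 genes passed in all, against 6 in the main fit. It also passed without either LSK WT library, where calls over all genes rose as well. It missed under RLE, total count and spike-in scaling, without the filter on low counts and with a replicate block. It missed too in the fit of LSK KO and WT alone and without any LSK KO or LSK Mut library. Mut minus WT was -0.79 (SE 0.305, adjusted p = 0.221), and KO minus Mut was -0.53 (SE 0.304, adjusted p = 1). Mut minus WT passed without LSK WT replicate 2 and missed without LSK WT replicate 1.

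In the MPP libraries Tet2 read 34.9 CPM in both labelled KO, 40.2 and 37.4 in Mut, and 39.6 and 29.4 in WT. The KO values lay inside the range of WT, and the log2 difference was 0.01 (SE 0.268, edgeR adjusted p = 0.999). The targeted gene thus gave no check of the label MPP KO, and since the allele is not given a count over the whole gene cannot show which exons were transcribed. KO values for LSK against MPP, and differences of KO effects, rest on these libraries labelled MPP KO. The difference between the KO effects of LSK and MPP cells, itself tested, was -1.31 (SE 0.402) and missed the threshold in edgeR (adjusted p = 0.198). That test passed in DESeq2 (adjusted p = 0.011). In edgeR it passed without LSK WT replicate 2 and missed without LSK WT replicate 1. In WT, Tet2 was 2.17-fold higher in LSK than in MPP, a log2 difference of 1.12 (SE 0.286) that passed in edgeR (adjusted p = 0.0158) and was lost without LSK WT replicate 1 (0.0561) or MPP WT replicate 2 (0.141). The same difference was -0.20 in KO (SE 0.284, adjusted p = 0.715) and 0.18 in Mut (SE 0.282, adjusted p = 0.773).

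Tet1 (chromosome 10, 62804570 to 62908996, minus strand) differed between populations and passed no genotype test. It was at 73.4 and 83.2 CPM in LSK KO, 68.9 and 52.2 in LSK Mut, and 63.6 and 74.7 in LSK WT. In MPP it was at 23.5 and 7.41 CPM in KO, 23.9 and 23.6 in Mut, and 18.2 and 20.3 in WT. All 6 LSK values lay above all 6 MPP values, and MPP KO replicate 2 was the lowest of the 12. LSK minus MPP was 2.34 in KO (SE 0.452, edgeR adjusted p = 0.00561) and 1.85 in WT (SE 0.445, adjusted p = 0.0115), a 5.07-fold and a 3.59-fold higher level. In Mut it was 1.35 (SE 0.436), which missed the threshold at an adjusted p of 0.0843 and passed in DESeq2 (0.0213) and without the filter on low counts (0.0271). The WT call was lost without MPP WT replicate 1 (0.0761) or replicate 2 (0.0602).

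Tet3 (chromosome 6, 83362373 to 83459084, minus strand) passed none of the 11 comparisons. Its level was 92.7 and 81.8 CPM in LSK KO, 67.9 and 71.3 in LSK Mut, and 133 and 75.2 in LSK WT, so that the LSK WT libraries were farther apart than the groups. MPP libraries held 44.8 and 67.9 CPM in KO, 48.6 and 60.5 in Mut, and 72.5 and 61.9 in WT. The LSK minus MPP log2 difference was 0.63 in KO, 0.35 in Mut and 0.63 in WT, with SEs of 0.298 to 0.299 and edgeR adjusted p of 0.195, 0.533 and 0.153. LSK WT replicate 1 carried the highest value, and without replicate 2 the Mut minus WT difference in LSK (-0.93) and the WT population difference (0.98) passed. Neither passed without LSK WT replicate 1.

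**Figure D1:**
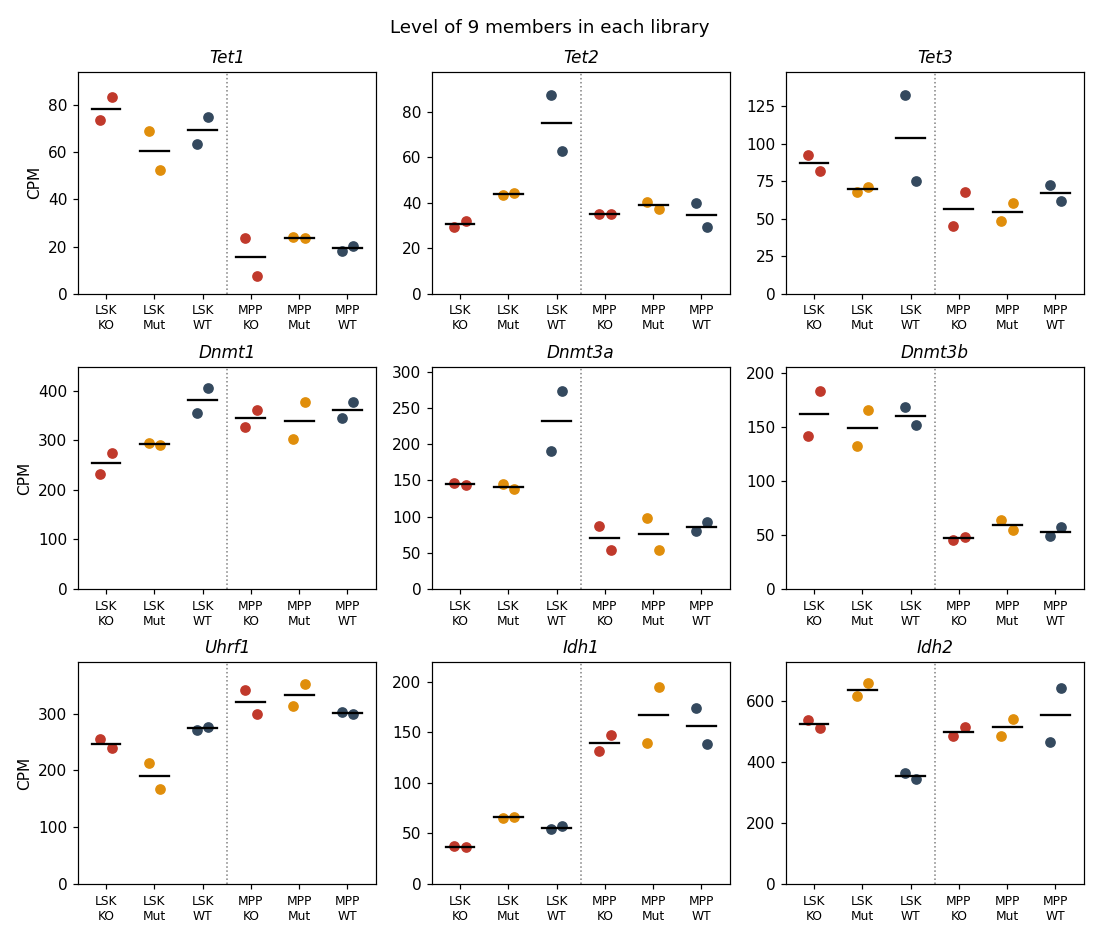
Levels of the 9 members that passed the filter, in CPM scaled over all 12 libraries; each point is 1 library, each bar the mean of 2, and the dotted line parts LSK from MPP. Dnmt3a, Dnmt3b and Tet1 lie higher in every LSK library than in any MPP library, and Idh1 and Uhrf1 lie lower. Idh2 separates LSK WT (363 and 344 CPM) from the other LSK groups.

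Of the methyltransferases, the de novo enzyme Dnmt3b was higher in LSK than in MPP in all 3 genotypes, and Dnmt3a was so in KO and WT. The maintenance enzyme Dnmt1 passed in no genotype, and its partner Uhrf1 was lower in LSK in Mut. Dnmt3b (chromosome 2, 153649450 to 153687730, plus strand) stood at 141 and 183 CPM in LSK KO against 45.6 and 47.7 in MPP KO. In Mut it stood at 132 and 165 CPM in LSK and 63.9 and 54.6 in MPP, and in WT at 168 and 151 CPM in LSK and 48.5 and 57.5 in MPP. The lowest LSK library exceeded the highest MPP library. The log2 difference was 1.80 in KO (SE 0.207, adjusted p = 0.000212), 1.33 in Mut (SE 0.204, adjusted p = 0.00221) and 1.59 in WT (SE 0.206, adjusted p = 0.000276), all in edgeR, and each call held when any 1 library was left out. Within a population no genotype difference of Dnmt3b passed the threshold, and the largest was -0.35 for MPP KO minus Mut (SE 0.222, adjusted p = 0.679).

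Dnmt3a (chromosome 12, 3806007 to 3914443, plus strand), often mutated in blood cancers, was at 146 and 144 CPM in LSK KO, 145 and 138 in LSK Mut, and 190.3 and 273 in LSK WT. In MPP it was at 86.5 and 53.3 CPM in KO, 98.3 and 53.2 in Mut, and 79.7 and 92.1 in WT. LSK values exceeded MPP values in all 3 genotypes without overlap. LSK minus MPP passed in KO at 1.05 (SE 0.304, edgeR adjusted p = 0.0399) and in WT at 1.43 (SE 0.307, adjusted p = 0.00618), and missed in Mut at 0.89 (SE 0.303, adjusted p = 0.0981; 0.0377 in DESeq2). The KO call was lost when either LSK KO, either LSK Mut, either MPP WT or the second MPP KO library was left out, with adjusted p of 0.0539 to 0.264, and the WT call without MPP WT replicate 1 (0.0506). Within LSK, both KO and Mut libraries lay below both WT libraries. The log2 differences were -0.70 for KO minus WT (SE 0.202, adjusted p = 0.254) and -0.74 for Mut minus WT (SE 0.202, adjusted p = 0.125), which share the WT libraries. Neither passed in edgeR, and both passed in DESeq2, at 0.0408 and 0.0159. In edgeR both passed without LSK WT replicate 1, and neither passed without LSK WT replicate 2.

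Dnmt1 (chromosome 9, 20907209 to 20959888, minus strand), the maintenance enzyme, was at 232 and 274 CPM in LSK KO, 293 and 289.9 in LSK Mut, and 354 and 406 in LSK WT. MPP libraries held 327 and 361 CPM in KO, 302 and 377 in Mut, and 345 and 376 in WT. KO was the lowest LSK group and WT the highest, without overlap, and the MPP groups overlapped. KO minus WT in LSK was -0.61 (SE 0.146) with an edgeR adjusted p of 0.22, and it passed in DESeq2 (0.00828). In edgeR it passed without LSK WT replicate 1 and missed without LSK WT replicate 2. In LSK minus MPP the KO value was -0.44 (SE 0.140, adjusted p = 0.0562), which crossed the threshold in DESeq2 (0.0128) and with both LSK WT libraries left out (0.0292). The Mut value was -0.22 (SE 0.140, adjusted p = 0.39) and the WT value 0.08 (SE 0.140, adjusted p = 0.736).

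Uhrf1 (chromosome 17, 56303321 to 56323486, plus strand) had 255 and 240.2 CPM in LSK KO, 214 and 167 in LSK Mut, and 271 and 277 in LSK WT. In MPP it had 343 and 299 CPM in KO, 314 and 352 in Mut, and 303 and 299 in WT. LSK Mut was the lowest group and did not overlap any other. Mut LSK minus MPP was -0.81 (SE 0.140), a 1.75-fold lower level that passed in edgeR (adjusted p = 0.00453) and was lost without LSK Mut replicate 2 (0.0526). KO was at -0.37 (SE 0.139, adjusted p = 0.1; 0.0364 in DESeq2) and WT at -0.13 (SE 0.139, adjusted p = 0.52). Mut minus WT within LSK was -0.55 (SE 0.161) and missed in edgeR (adjusted p = 0.145), while DESeq2 (0.0249) and the fit of all 12 libraries (0.0471) passed it. Of 18 listed proliferation genes, 14 were lower in LSK than in MPP in KO, 5 in Mut and 13 in WT, where 8.14%, 5.21% and 13.7% of all genes were lower. In WT 1 was higher, Top2a, a topoisomerase named after its values were seen (0.44, SE 0.140, edgeR adjusted p = 0.0414). The summed level of the 18 was 3914 to 3945 CPM in LSK KO, 4359 to 4706 in LSK Mut and 3392 to 3760 in LSK WT. In MPP the sum was 6962 to 7307 CPM in KO, 6286 to 6511 in Mut and 6081 to 6211 in WT, and none of the 18 was at 0 in any group. Its part in the levels of Dnmt1 and Uhrf1 was not tested.

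**Figure D2:**
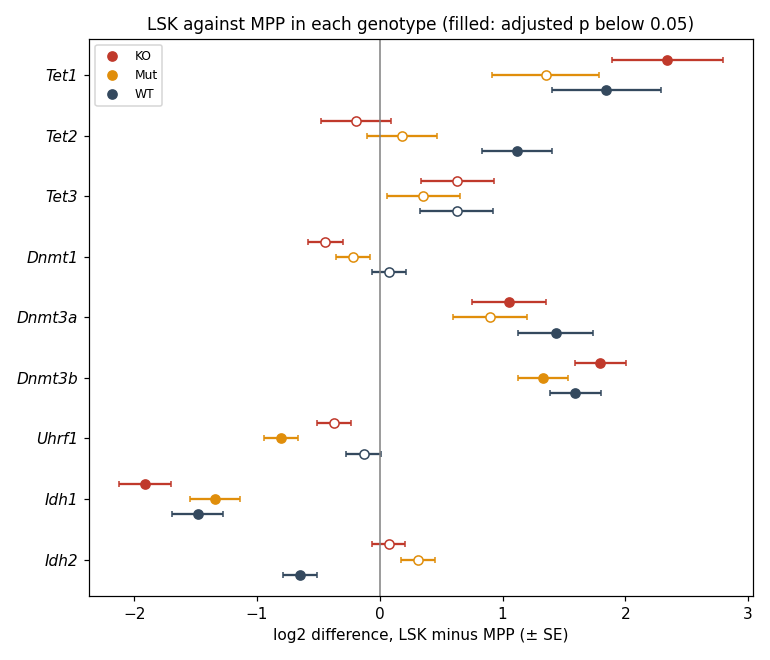
LSK minus MPP log2 difference of the 9 tested members in KO, Mut and WT (edgeR fit of 12 libraries); bars are ± SE, filled points have an adjusted p below 0.05 over all genes. Dnmt3b and Idh1 are filled in all 3 genotypes on opposite sides of 0, and Tet2 is filled in WT, at 1.12.

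Tdg (chromosome 10, 82629828 to 82650799, plus strand) was close to absent from the counts. It had 5 counts in all, 2 in LSK Mut replicate 2 and 1 each in the LSK WT libraries and in MPP KO replicate 2, and 0 in the other 8 libraries. All 12 values were below the floor of 3 counts, so no fold is given. The Tdg transcript shares 98.7% identity over 2968 bases with the pseudogene Tdg-ps, 99.2% over 1194 bases with Gm9855 and 99.3% over 1193 bases with Gm5597, and it overlaps 367 bases of Glt8d2 on the opposite strand. Of these pseudogenes Gm9855 has a row in the tables, with 0 counts in all libraries. The strand setting and the treatment of reads with several matches are not given in the sources used here, so a low Tdg count cannot be told apart from reads that were discarded. Uhrf1 also has a close copy, the pseudogene Gm5648 at 98.3% over 1590 bases, and Dnmt3b shares 93.9% over 1434 bases with Dnmt3c, so their counts are uncertain to that extent. Dnmt3a overlaps the antisense RNA Dnmt3aos over 133 bases, and that row had 0 counts in LSK and 6 in MPP libraries.

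Of the isocitrate dehydrogenases, Idh1, the cytosolic enzyme, was lower in every LSK library than in any MPP library, and Idh2, the mitochondrial enzyme, was the member that passed a genotype test. Idh1 lies on chromosome 1, 65158616 to 65186500, and Idh2 on chromosome 7, 80094846 to 80115392, both on the minus strand. Idh1 had 37.7 and 36.1 CPM in LSK KO, 65.2 and 66.5 in LSK Mut, and 54.8 and 56.9 in LSK WT. In MPP it had 131 and 147 CPM in KO, 139 and 195 in Mut, and 174 and 138 in WT. LSK minus MPP was -1.91 in KO (SE 0.209, edgeR adjusted p = 0.000153), -1.34 in Mut (SE 0.205, adjusted p = 0.00214) and -1.48 in WT (SE 0.207, adjusted p = 0.000443). These are 3.77-fold, 2.54-fold and 2.80-fold lower levels. Within LSK the KO libraries lay below both other genotypes, by -0.84 against Mut (SE 0.271, adjusted p = 0.951) and -0.62 against WT (SE 0.270, adjusted p = 0.375), and neither passed.

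Idh2 stood at 538 and 513 CPM in LSK KO, 617 and 658 in LSK Mut, and 363 and 344 in LSK WT. The genotypes did not overlap, with Mut highest and WT lowest. Mut minus WT was 0.83 (SE 0.106), a 1.78-fold higher level that passed in edgeR (adjusted p = 0.026). The call was lost in the fit of LSK Mut and WT alone (0.171), and without either LSK KO library (0.138 and 0.142) or either LSK Mut library (0.256 and 0.282). It held without either LSK WT library, but calls over all genes rose in those fits too, so holding there does not set Idh2 apart. KO minus WT was 0.55 (SE 0.106, adjusted p = 0.172) and passed in DESeq2 (0.000553).

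In MPP, Idh2 had 484 and 516 CPM in KO, 487 and 542 in Mut, and 467 and 643 in WT, which overlapped. Mut minus WT there was -0.11 (SE 0.140, adjusted p = 0.879). The difference of the Mut effects, LSK minus MPP, was 0.96 (SE 0.194) and passed in edgeR at an adjusted p of 0.0281. It was lost without either LSK Mut library, either MPP Mut library or MPP WT replicate 2, at adjusted p of 0.0652 to 0.111. In WT, Idh2 was 1.57-fold lower in LSK than in MPP, at -0.65 (SE 0.138, adjusted p = 0.00576), and this call was lost without MPP WT replicate 2 (0.0602). The KO difference was 0.07 (SE 0.137, adjusted p = 0.79) and the Mut difference 0.31 (SE 0.137, adjusted p = 0.201).

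**Figure D3:**
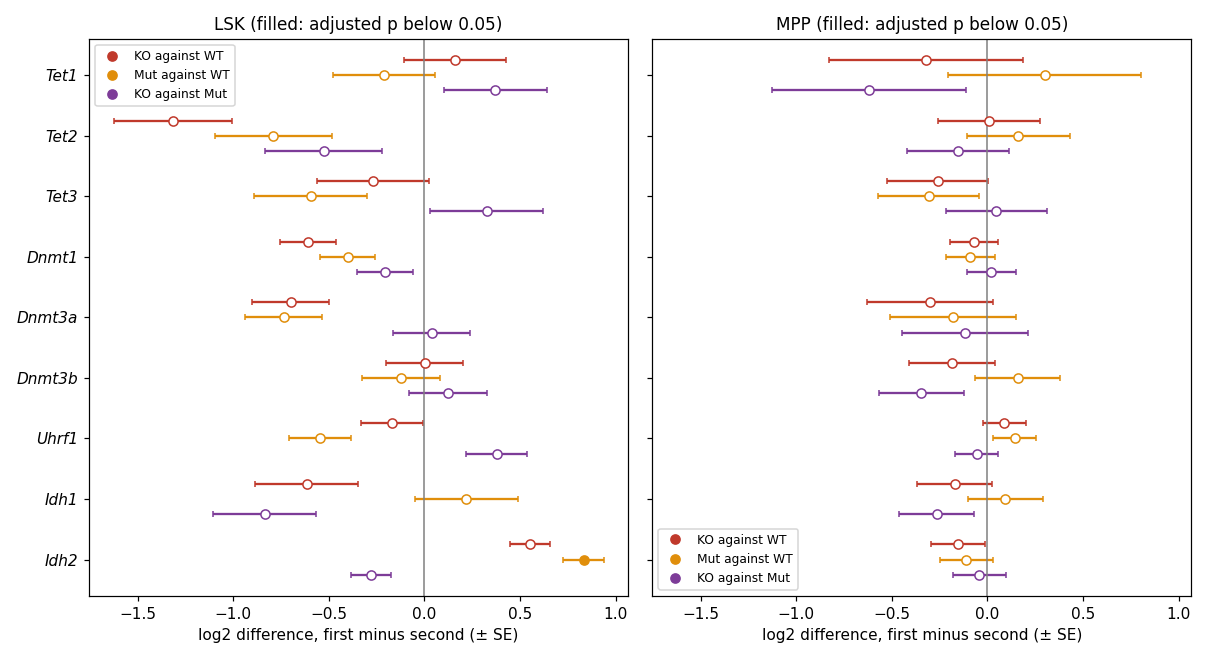
Log2 differences between genotypes (first minus second, ± SE) for the 9 tested members in LSK and in MPP, from edgeR fits of 6 libraries each; filled points have an adjusted p below 0.05. Idh2 in LSK Mut against WT, at 0.83, is the filled point, and Tet2 in LSK KO against WT, at -1.32, is the farthest from 0 without passing.

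Counted over the set, genotype comparisons gave few calls and population comparisons gave more. In LSK, 0 of 9 members passed for KO against WT, where 0.0456% of all genes tested passed, 1 of 9 for Mut against WT (1.28% of all genes) and 0 of 9 for KO against Mut (0.0607%). In MPP, 0 of 9 passed for KO against WT (0.363% of all genes), Mut against WT (0.224%) and KO against Mut (0.239%). At an unadjusted p below 0.05, 4 members passed in LSK KO against WT, 5 in Mut against WT and 3 in KO against Mut, where 13.8%, 19.1% and 4.24% of all genes did. DESeq2 called 4, 3 and 0 members, and 688, 1530 and 112 genes in all. In the 3 MPP comparisons both member counts were 0, with 8.47% to 9.75% of all genes at an unadjusted p below 0.05. For LSK against MPP, 4 of 9 members passed in KO (15.2% of all genes), 3 in Mut (8.76%) and 6 in WT (24%). For the difference of KO effects 0 passed (0.727% of all genes), with 3 at an unadjusted p below 0.05 (12.4% of all genes) and 2 in DESeq2 (658 genes in all), and for the difference of Mut effects 1 passed (2.53%). The threshold is an adjusted p of 0.05 by the Benjamini-Hochberg method over all genes tested, and with 2 libraries a group a miss does not show that levels were alike. Each difference is relative to the average gene. Scaling by spike-ins raised the median of all genes by 4.17 to 5.85 for LSK minus MPP, so that genes lower in LSK here, Idh1 among them, were higher under it. Within LSK it raised the median by 1.09 for Mut minus WT and 0.508 for KO minus WT. The LSK Mut minus WT values of the 3 Tet genes, Dnmt1, Dnmt3a, Dnmt3b and Uhrf1, all below 0 here and past the threshold in neither fit, lay between 0.33 and 1.02 under it.

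Per kilobase of exon, which allows levels of different genes to be set side by side, Idh2 ranked first and Uhrf1 second in every group. Idh2 reached 203 CPM per kilobase in LSK KO, 246 in LSK Mut and 137 in LSK WT, and Uhrf1 58.1, 44.7 and 64.4 in the same groups. Dnmt1 took the third rank in LSK and the fourth in MPP, where Idh1 was above it. The Idh1 and Dnmt1 values in MPP, 50.2 ± 3.96 and 46.7 ± 3.24 in KO, 60.3 ± 14.3 and 46.0 ± 7.17 in Mut, and 56.3 ± 9.13 and 48.9 ± 3.0 in WT (SD, n = 2), differed in each genotype by less than the sum of their SDs. In LSK, Dnmt3b, Idh1 and Dnmt3a followed in that order, and in MPP, Dnmt3b and Dnmt3a. The Tet genes were lowest apart from Tdg, between 1.0 and 6.22 CPM per kilobase. In LSK WT, Tet1 at 4.48 ± 0.506 and Tet2 at 4.44 ± 1.03 (SD, n = 2) did not differ beyond their spread. With the longest transcript in place of all exons they stood at 4.81 ± 0.544 and 8.17 ± 1.90, in the other order and apart by more than the sum of their SDs. Of 60 ranks 4 differed with that choice, those of Tet1 and Tet2 in LSK Mut and LSK WT.

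Shares within a family do not depend on how libraries are scaled. Tet2 supplied 14.9% ± 0.774 of the summed Tet level in LSK KO, 24.4% ± 1.67 in LSK Mut and 29.2% ± 1.11 in LSK WT, and 32.1% ± 1.21, 32.5% ± 3.34 and 27.8% ± 2.89 in MPP KO, Mut and WT (SD, n = 2). The LSK KO share was the lowest of the 6 and did not overlap another. Tet1 supplied 41.9% ± 3.38, 36.5% ± 5.15 and 30.5% ± 9.29 of the sum in LSK KO, Mut and WT. In MPP KO, Mut and WT it supplied 15.7% ± 12.0, 21.7% ± 1.34 and 17.2% ± 3.16. The LSK Mut share of Tet1 overlapped those of LSK KO and LSK WT. Tet3 supplied the rest, the largest mean share in every group. Dnmt1 supplied 45.9% ± 0.635, 51.3% ± 3.03 and 53.2% ± 1.74 of the summed Dnmt level in LSK KO, Mut and WT. In MPP KO, Mut and WT it supplied 77.7% ± 2.65, 73.8% ± 6.82 and 75.9% ± 0.971. Dnmt3b made up most of the rest in LSK, at 42.3% ± 2.31, 37.7% ± 3.97 and 32.5% ± 4.48. In MPP it was at 15.2% ± 0.0495, 18.8% ± 3.26 and 16.1% ± 0.752. A share also rises when another gene of the sum falls, and Dnmt3b itself averaged 162, 149 and 160 CPM in LSK KO, Mut and WT. The length of a gene enters these shares: with the longest transcript in place of all exons the Tet2 share ran between 19.8% and 38.9%, and 20 of 36 shares moved by over 1 SD, while its lowest group remained LSK KO.

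**Figure D4:**
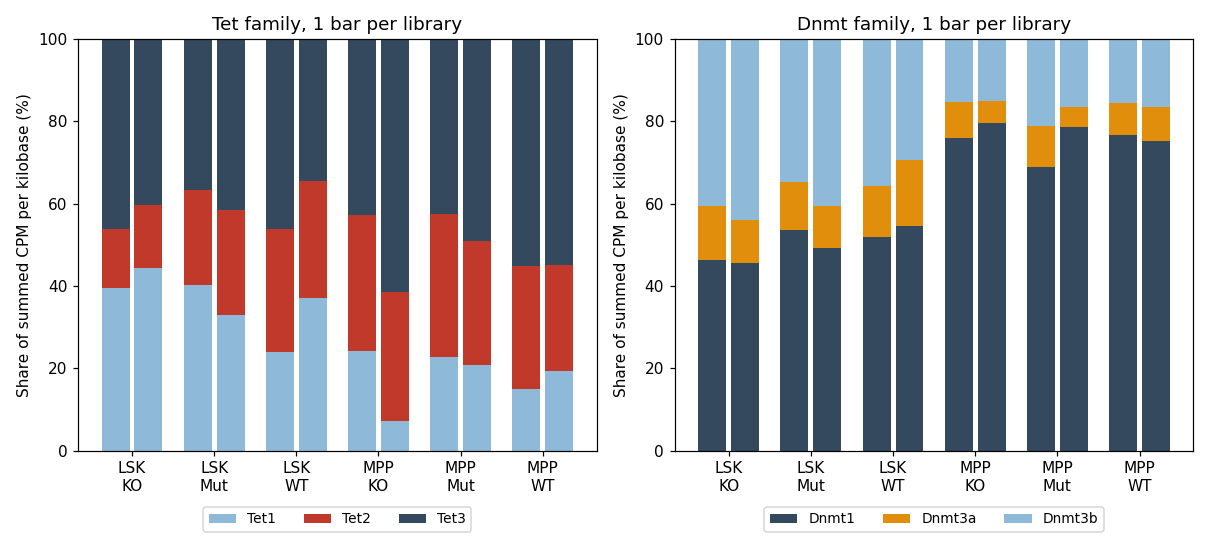
Share of each gene in the summed CPM per kilobase of its family, 1 bar per library, for Tet1, Tet2 and Tet3 and for Dnmt1, Dnmt3a and Dnmt3b. The Tet2 band is thinnest in LSK KO (14.9% on average), and the Dnmt3b band is wider in all LSK libraries (32.5% to 42.3% on average) than in MPP libraries (15.2% to 18.8%).

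The surrounding pathway was read from 6 lists with 64 genes, of which 63 were in the tables. In LSK, 0 of 59 genes tested passed for KO against WT and 1 of 59 for Mut against WT, or 1.69% beside the 1.28% of all genes. At an unadjusted p below 0.05 there were 13 and 26, beside 13.8% and 19.1% of all genes. In MPP 0 of 59 passed in each genotype comparison. The gene that passed was Usp7, a deubiquitinase that binds Uhrf1 and Dnmt1. Usp7 had 170.0 and 139 CPM in LSK KO, 117 and 87.1 in LSK Mut, and 212 and 254 in LSK WT. All 3 genotypes were separate, Mut lowest. Under spike-in scaling Mut minus WT was -0.18, against a median of 1.1 over all genes. The difference of Mut effects given below was -0.045 under that scaling, against a median of 1.74. In the main fit Mut minus WT was -1.21 (SE 0.213, edgeR adjusted p = 0.0494). The call was lost without either LSK KO or either LSK Mut library, at adjusted p of 0.153 to 0.319, in the fit of LSK Mut and WT alone (0.178) and under total count scaling (0.0522). The difference of Mut effects, LSK minus MPP, was -1.65 (SE 0.285, adjusted p = 0.0156), and it was lost without LSK Mut replicate 2 (0.0649), MPP Mut replicate 1 (0.0662) or MPP WT replicate 1 (0.0587).

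Between populations more of the pathway passed. For LSK against MPP, 15 of 60 genes tested passed in KO (4 higher, 11 lower), 6 in Mut (3 higher, 3 lower) and 20 in WT (6 higher, 14 lower), or 25%, 10% and 33.3% beside the 15.2%, 8.76% and 24% of all genes (7.03%, 3.55% and 10.2% higher). Cxxc5, a CpG-binding protein reported to act with Tet2, was higher in LSK in all 3 genotypes, by 2.25 in KO, 1.98 in Mut and 2.32 in WT on the log2 scale. Its levels were 119 and 115 CPM in LSK KO against 23.0 and 26.1 in MPP KO. Ogt, the O-GlcNAc transferase that binds Tet proteins, was also higher in all 3, by 0.97, 1.07 and 1.40. The damage-response genes Gadd45a and Gadd45b, proposed to aid demethylation, were lower in LSK by -1.40 and -1.41 in KO and by -1.18 and -0.91 in Mut, and in WT, at -0.31 and -0.35, did not pass. Trim28, a corepressor, was higher in KO (1.01) and Mut (1.11). Uhrf2, a relative of Uhrf1, was higher in WT, by 1.19. Of the methyl donor list, 3 of 10 genes were lower in KO, 0 in Mut and 4 in WT. Of all genes 8.14%, 5.21% and 13.7% were lower. In Mut 3 of the list had an unadjusted p below 0.05, as did 23.4% of all genes. Mthfd1, a folate enzyme, led the calls, at -1.53 in KO and -1.21 in WT. The calls of Cxxc5, Uhrf2 and, in KO, Gadd45b and Mthfd1 held when any 1 library was left out. Those of Ogt were lost without any 1 of the 4 KO libraries in KO (adjusted p = 0.0698 to 0.123) and without LSK Mut replicate 1 or either MPP Mut library in Mut (0.0723 to 0.134). Gadd45a was lost in KO without LSK KO replicate 1 (0.0831) or MPP KO replicate 1 (0.051), and in Mut without LSK Mut replicate 1 or either MPP Mut library (0.0781 to 0.216). Gadd45b in Mut was lost without any 1 library other than those of LSK WT (0.0632 to 0.254). Trim28 was lost without LSK KO replicate 2 or MPP KO replicate 2 in KO (0.0675 and 0.0693) and without LSK Mut replicate 2 or MPP Mut replicate 1 in Mut (0.0535 and 0.0524), and Mthfd1 in WT without MPP WT replicate 1 (0.0561).

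The listed genes of 2-oxoglutarate supply and its competitors were lower in LSK than in MPP where they passed, and most of them passed in WT. Of 12 such genes tested, 5 were lower in KO, 1 in Mut and 8 in WT, and none was higher, where 8.14%, 5.21% and 13.7% of all genes were lower, with list medians of -0.52, -0.10 and -0.82 against 0.05, 0.03 and 0 over all genes; under spike-in scaling these lower calls turned to higher with the shift given above. Idh3a, the catalytic subunit of the NAD-dependent isocitrate dehydrogenase, was lower in all 3 genotypes, by -1.25 in KO, -0.81 in Mut and -1.60 in WT. It had 132 and 154 CPM in LSK KO against 316 and 362 in MPP KO. In LSK, Idh3a, Idh3b and Idh3g were 0.78, 0.77 and 0.60 above WT in Mut, and all 3 missed the threshold (edgeR adjusted p = 0.0802, 0.0795 and 0.0825). In MPP, Idh3g and Sdha, a subunit of succinate dehydrogenase, averaged 386 and 524 CPM in Mut, below 473 and 621 in WT. The difference of Mut effects, LSK minus MPP, passed for Idh3g (0.92, SE 0.164, adjusted p = 0.0175) and for Sdha (0.74, SE 0.150, adjusted p = 0.029). Each was lost without either LSK Mut library, either MPP Mut library or MPP WT replicate 2, and Sdha also without LSK KO replicate 2, either MPP KO library or MPP WT replicate 1. Adjusted p then ran between 0.0541 and 0.0876 for Idh3g and between 0.0501 and 0.126 for Sdha. The neutrophil and monocyte list of 8 genes summed to 166 to 285 CPM in LSK libraries, with Ly6g and Ltf at 0 in LSK WT, and to 2730 to 4260 CPM in MPP libraries. The erythroid list summed to 104 to 254 CPM in LSK and 635 to 1109 in MPP, with Hba-a1 and Hbb-bs at 0 in every library, and the T and NK cell list to 237 to 432 CPM in LSK and 1071 to 1468 in MPP. The B cell list summed to 45.3 to 66.4 CPM in LSK and 45.5 to 73.4 in MPP with Pax5 at 0, the megakaryocyte list to 243 to 421 and 203 to 370.1 CPM, and the stem and progenitor list to 2770 to 3448 and 721 to 908 CPM. The part of these cells in the population differences was not tested.

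**Figure D5:**
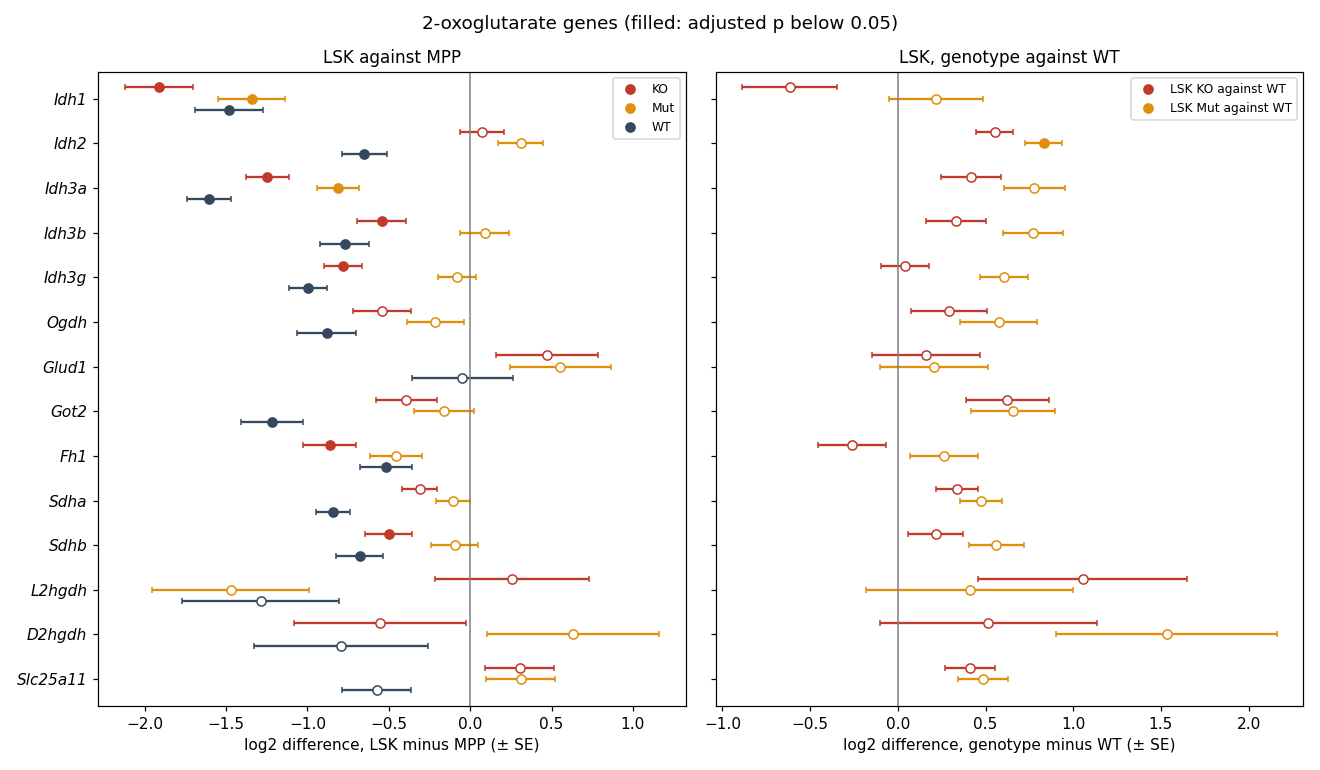
Idh1, Idh2 and the 12 genes of 2-oxoglutarate supply and its competitors: LSK minus MPP log2 difference by genotype (left) and LSK genotype minus WT (right), ± SE, filled where the adjusted p is below 0.05. On the left Idh1 and Idh3a are filled in all 3 genotypes, and on the right the one filled point is Idh2 in Mut, at 0.83.

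For 5 members whose group means spanned at least 2-fold, the genes of nearest pattern over the 6 group means were found among 7879 genes, by the root mean square difference of centred log2 values. Dnmt3b lay nearest to Cand2 (0.071), Pde4b (0.100) and Kit (0.106), the last a marker of the LSK gate. Idh1 lay nearest to Nagpa (0.123), Csf1r (0.129) and Gstm5 (0.147), of which Csf1r marks monocytes. Tet2 lay nearest to Frmd4a (0.0801), Tbk1 (0.0846) and Golga2 (0.104), Dnmt3a to Gtf2ird2 (0.0754), Fra10ac1 (0.0912) and Kdm3b (0.0932), and Tet1 to Abcg1 (0.111), Cish (0.112) and Ltb (0.123). Such likeness rests on 6 means that share libraries and is a description.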

How the data were processed

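Per the labels' protocols, RNA was amplified and barcoded, libraries were made with ERCC spike-ins, and 150 bp read pairs were sequenced. Per the submitters' processing notes and the series' design text, Trim Galore 0.4.1 did the trimming and TopHat2 2.0.13 the mapping, to mm10; HTSeq 0.6.1 and Cufflinks are named without a role, and the annotation and strand setting are not given in the sources used here. The authors deposited a table of raw counts for each population, with 24630 gene symbols as rows, 92 of them spike-ins. One MPP column repeats the library number 3 in its heading and was matched to MPP KO replicate 2 by the rest of its name.

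Counts were tested with edgeR 4.0.16 (R 4.3.3; filterByExpr with a minimum count of 10 and a total of 15, TMM scaling over genes without spike-ins, glmQLFit and glmQLFTest, no replicate block). Genotypes were compared in fits of 6 libraries (13170 LSK and 12947 MPP genes), populations and differences of effects in a fit of 12 (14033 genes), with Benjamini-Hochberg adjustment over all genes. SE is the log2 difference divided by the root of F. CPM were scaled over all 12 libraries. Gene positions and exon lengths are from GENCODE on GRCm38. Alternatives were DESeq2 1.42.0, other scalings, no filter, a replicate block, other sample sets and leaving out each library. All 66 pairs of libraries differed. The fits were tested on simulated data. Named genes were all members, up to 4 called genes per pathway list and comparison by size, the marker checks, and for each member with a 2-fold span the 3 nearest patterns; some results of this rule are not reported here. Members and lists were chosen with earlier results of these data known.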

Additional observations from a re-analysis of the deposited data

Results flagged for a closer look

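These results drew a closer look because the effect of the Mut genotype differed between the LSK and MPP populations, by the interaction term of the 12-library edgeR fit or by the direction of every library. All are LSK minus MPP differences of the Mut minus WT log2 effect. Idh2 gave 0.96 (adjusted p = 0.0281), Idh3g 0.92 (0.0175) and Sdha 0.74 (0.029), each with both LSK Mut libraries above both LSK WT libraries. In MPP, Idh3g averaged 386 CPM in Mut (SD 20.8) and 473 in WT (SD 35.2). Sdha averaged 524 CPM in MPP Mut (SD 50.7) and 621 in MPP WT (SD 20.2). The differences of effects of these 2 genes thus draw on both populations. Idh2 overlapped between MPP Mut and MPP WT. Usp7 gave -1.65 (adjusted p = 0.0156), with both LSK Mut libraries below and both MPP Mut libraries above their WT libraries. Uhrf1 moved in opposite directions in every library of the 2 populations, lower in LSK Mut (214 and 167 CPM) than in LSK WT (271 and 277), and higher in MPP Mut (314 and 352) than in MPP WT (303 and 299). Its difference of effects was tested, at -0.67 (SE 0.197), and did not pass (adjusted p = 0.107). Nor did Mut minus WT of Uhrf1 pass in edgeR, at -0.55 in LSK (adjusted p = 0.145) and 0.14 in MPP (SE 0.112, adjusted p = 0.754). The share of all genes with such opposite directions is not given here, so the Uhrf1 pattern cannot be set against it. No outlier test applies to groups of 2 libraries.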

How the results depend on the processing

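The members called per comparison were counted again under each alternative, with each library left out in turn giving a range. Calls over all genes moved with the same settings, as given below, so these counts do not set the members apart. For LSK KO against WT the count was 0, and 4 in DESeq2, 1 in the fit of all 12 libraries and 0 to 4 without 1 library. For LSK Mut against WT it was 1, and 3 in DESeq2, 2 in the fit of all 12 libraries, 0 in the fit of the 2 groups alone and 0 to 3 without 1 library. For LSK against MPP it was 4 in KO (9 by spike-in scaling, 3 to 5 without 1 library), 3 in Mut (9 by spike-in scaling, 5 each by total count scaling, without the filter and in DESeq2, 2 to 5 without 1 library) and 6 in WT (3 to 7 without 1 library, with 3 when that was MPP WT replicate 2). The difference of KO effects gave 0, and 1 without the filter, 2 in DESeq2 and 0 to 1 without 1 library, and that of Mut effects 1, and 6 by spike-in scaling, 2 in DESeq2 and 0 to 1 without 1 library. MPP Mut against WT went to 2 and MPP KO against Mut to 3 by spike-in scaling. Leaving out both LSK WT libraries, tried after the data were seen, gave 5 in KO and 3 in Mut for LSK against MPP. The cause of these shifts was not tested.

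Library numbers did not pair the samples: deviations of same-numbered libraries correlated at -0.0388 to 0.036 between groups. With a replicate block the Idh2 call in LSK Mut against WT was lost (adjusted p = 0.0528), leaving 0 members, KO LSK against MPP gave 5, and over all genes the LSK Mut against WT count was 35, against 168 without it.

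Over all genes, LSK KO against WT gave 6 calls, and 688 in DESeq2, 71 by spike-in scaling, 1690 without LSK WT replicate 2 and 0 without LSK KO replicate 1. LSK Mut against WT gave 168, and 1530 in DESeq2 and 5 in the fit of the 2 groups alone, and LSK KO against Mut 8, and 112 in DESeq2. The fit of all 12 libraries gave 272 for LSK KO against WT and 949 for LSK Mut against WT. In MPP, KO against WT gave 47, Mut against WT 29 and KO against Mut 31, and in DESeq2 271, 313 and 297. LSK against MPP gave 2128 in KO, 1229 in Mut and 3361 in WT, and the lowest counts without 1 library were 991, 540 and 2018. The difference of KO effects gave 102, and 2 by spike-in scaling and 903 without LSK WT replicate 2, and that of Mut effects 355, and 1235 in DESeq2 and 88 without MPP Mut replicate 1. Spike-in scaling moved nearly all calls to one side: for LSK against MPP 11986 higher and 25 lower in KO (986 and 1142 in the TMM fit), 12559 and 11 in Mut (498 and 731) and 11431 and 119 in WT (1438 and 1923). It gave 2980 higher and 22 lower for LSK Mut against WT (71 and 97 in the TMM fit), 16 and 2281 for MPP Mut against WT (17 and 12), 3236 and 18 for MPP KO against Mut (11 and 20) and 5412 and 16 for the difference of Mut effects (213 and 142). Of 1241 member values past the threshold in neither fit, 78 changed sign, 29 by spike-in scaling, 41 without 1 library and 8 otherwise.

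Under spike-in scaling the all-gene median shifted by 4.61, 5.85 and 4.17 for LSK minus MPP in KO, Mut and WT, by 1.09 for LSK Mut against WT and by 0.649 for MPP KO against Mut, and, of log2 values past the threshold in the TMM or the spike-in fit, those that follow turned positive. For KO LSK minus MPP, Tet2 became 4.42, Dnmt1 4.18, Uhrf1 4.25, Idh1 2.70, Gadd45b 3.20, Gadd45a 3.22, Gadd45g 3.48, Idh3a 3.37, Fh1 3.76, Idh3g 3.84, Idh3b 4.07, Mthfd1 3.09 and Shmt2 3.91. For Mut LSK minus MPP, Dnmt1 became 5.64, Uhrf1 5.0, Idh1 4.52, Gadd45a 4.74, Gadd45b 4.95 and Idh3a 5.03. For WT LSK minus MPP, Uhrf1 became 4.06, Idh1 2.72, Idh2 3.52, Trdmt1 1.96, Parp1 3.36, Idh3a 2.58, Got2 3.0, Idh3g 3.20, Ogdh 3.32, Mthfd1 2.94, Mtr 3.11, Shmt2 3.18 and Mat2a 3.62. For the difference of Mut effects, Tet3 became 1.43, Dnmt1 1.37, Dnmt3b 1.45 and Uhrf1 0.94, and for MPP KO minus Mut, Uhrf1 became 0.59 and Idh2 0.61. Relative to the all-gene median under spike-in scaling, all 53 called values of named genes kept their sign. Idh1 in KO LSK minus MPP, for one, lay at 2.70 where the median was 4.66.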
